A study of Caenorhabditis elegans with 3 samples.

Results

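The 70-kDa heat shock proteins (HSP70) are ATP-driven chaperones, and 7 genes that encode them in Caenorhabditis elegans were examined for binding by the transcription factor Y5F2A.4. The genes were listed by name, with no threshold on a measured value, though earlier results of these data were known when the list was drawn up. They make up 7 of the 19973 nuclear protein-coding genes of the annotation. The list grouped 4 of them as inducible by stress: hsp-4, hsp-70, F44E5.4 and F44E5.5. The other 3 were grouped as constitutive: hsp-1, hsp-3 and hsp-6. Constitutive is the name of the group here and does not mean that stress leaves these genes unchanged.

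Binding was measured by chromatin immunoprecipitation with sequencing (ChIP-seq) in 1 group of samples, with no second condition to compare. All worms were of strain OP682, in which the mutation unc-119(tm4063) is rescued by the integrated transgene wgIs682, which carries Y5F2A.4::TY1::EGFP::3xFLAG with a wild-type unc-119 copy. Whole mixed-sex L4 larvae aged 48 hours, synchronised by bleaching and L1 starvation, gave 3 libraries, of which 2 are technical repeats of biological replicate 1 and 1 is biological replicate 2. An anti-GFP antibody pulled down the fusion protein. The measurement is therefore of a tagged transgene product in 1 strain, pooled over all tissues of the worm. Apart from the bleaching and L1 starvation of the synchronisation, no heat shock or other stress is named in the labels.

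HSP70 proteins bind exposed hydrophobic stretches of unfolded proteins and release them in a cycle of ATP hydrolysis that J-domain proteins and nucleotide exchange factors drive. Cytosolic, endoplasmic reticulum and mitochondrial forms exist side by side, and each compartment has its own stress response that raises its HSP70. In C. elegans, heat shock factor HSF-1 acts on the cytosolic forms through heat shock elements (HSE), arrays of GAA and TTC in alternation, and the factor XBP-1 acts on hsp-4 when proteins misfold in the endoplasmic reticulum.

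The promoter sequences of F44E5.4 and F44E5.5, hsp-4 and hsp-1 are shown first so that the motifs can be read beside the values that follow. All are from RefSeq's copy of assembly WBcel235, whose chromosome lengths match the ce11 coordinates of the deposited lists, and each reads 5' to 3'. Capitals mark the heat shock elements GAANNTTC and TTCNNGAA and, in hsp-4, the element TGACGTG, which is of the XBP-1 type and lies there on the opposite strand (CACGTCA). The stretch shared by F44E5.4 and F44E5.5 is on the plus strand of chrII:11759337-11759636, so F44E5.5 starts to its right and F44E5.4, on the minus strand, to its left; it covers the whole peak at chrII:11759365-11759575 and the TATAAA matches of both genes near its ends. The hsp-1 stretch, on the plus strand of chrIV:17278559-17278858, is the 300 bp that begin 400 bp before the annotated 5' end. The hsp-4 stretch (minus strand of chrII:7352646-7352895) is the 250 bp before the annotated 5' end.
F44E5.4 and F44E5.5: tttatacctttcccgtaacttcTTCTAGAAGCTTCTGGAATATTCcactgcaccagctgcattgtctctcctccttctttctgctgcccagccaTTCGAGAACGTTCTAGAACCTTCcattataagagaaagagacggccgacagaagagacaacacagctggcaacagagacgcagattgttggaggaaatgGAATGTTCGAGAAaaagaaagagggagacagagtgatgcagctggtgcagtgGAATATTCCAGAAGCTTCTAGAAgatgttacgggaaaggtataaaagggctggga
hsp-4: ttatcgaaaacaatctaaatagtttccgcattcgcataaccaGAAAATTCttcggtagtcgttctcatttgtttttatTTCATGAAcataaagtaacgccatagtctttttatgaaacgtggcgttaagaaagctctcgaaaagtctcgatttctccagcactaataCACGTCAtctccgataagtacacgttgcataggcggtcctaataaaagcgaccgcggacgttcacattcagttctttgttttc
hsp-1: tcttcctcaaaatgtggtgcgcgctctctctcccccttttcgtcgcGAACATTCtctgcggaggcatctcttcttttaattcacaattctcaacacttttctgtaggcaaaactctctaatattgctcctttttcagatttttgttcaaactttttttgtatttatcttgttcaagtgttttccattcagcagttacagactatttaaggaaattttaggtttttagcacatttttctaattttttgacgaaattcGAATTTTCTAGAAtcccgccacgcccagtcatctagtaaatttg

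The authors deposited 4 lists of regions. Candidate regions, which hold peaks together with background, were given for replicate 1 (30000 regions), for replicate 2 (23415) and for both combined (28443), and a list of 635 reproducible peaks, 620 of them nuclear, was derived from these 3. Every region carries a signal value, which is the authors' own and has no stated unit, so it was read only within a list. The reproducible peaks had signals from 100.5 to 4430, with a median of 132.4, whereas the combined candidates started at 29.16. Read depth is unknown, since the lists give no read counts. A site missing from a list was not called there, which does not show that it was unbound. Of the 620 nuclear peaks, 314 had their summit within 200 bp of a non-coding gene.

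A reproducible summit lay in the promoter of 4 of the 7 HSP70 genes, where the promoter is the 1000 bp before the annotated 5' end and the first 200 bp after it. The 2 inducible genes among them, F44E5.4 and F44E5.5, share a single peak, and the 2 constitutive genes, hsp-1 and hsp-3, have a peak each, so the 4 genes stand for 3 peaks. Over all nuclear protein-coding genes, 291 of 19973, or 1.46%, had such a summit. None lay at hsp-4, hsp-70 or hsp-6. The genes are not replicates and were not drawn at random, so the counts of inducible and constitutive genes are set side by side with no test.

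In the candidate lists the count of HSP70 genes moved little, but the background was far higher. The combined list placed a promoter summit at 5 of the 7 genes (2 inducible and 3 constitutive), where 30.4% of all protein-coding genes had one. In replicate 1 alone 6 genes had one (3 inducible and 3 constitutive; 30.7% of all genes). In replicate 2 alone 4 genes had one (2 inducible and 2 constitutive; 26.9% of all genes). Where a candidate ranks within its list is therefore given with each gene. The annotated 5' ends used here need not be where transcription starts, since many worm transcripts are trans-spliced.

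**Figure D1:**
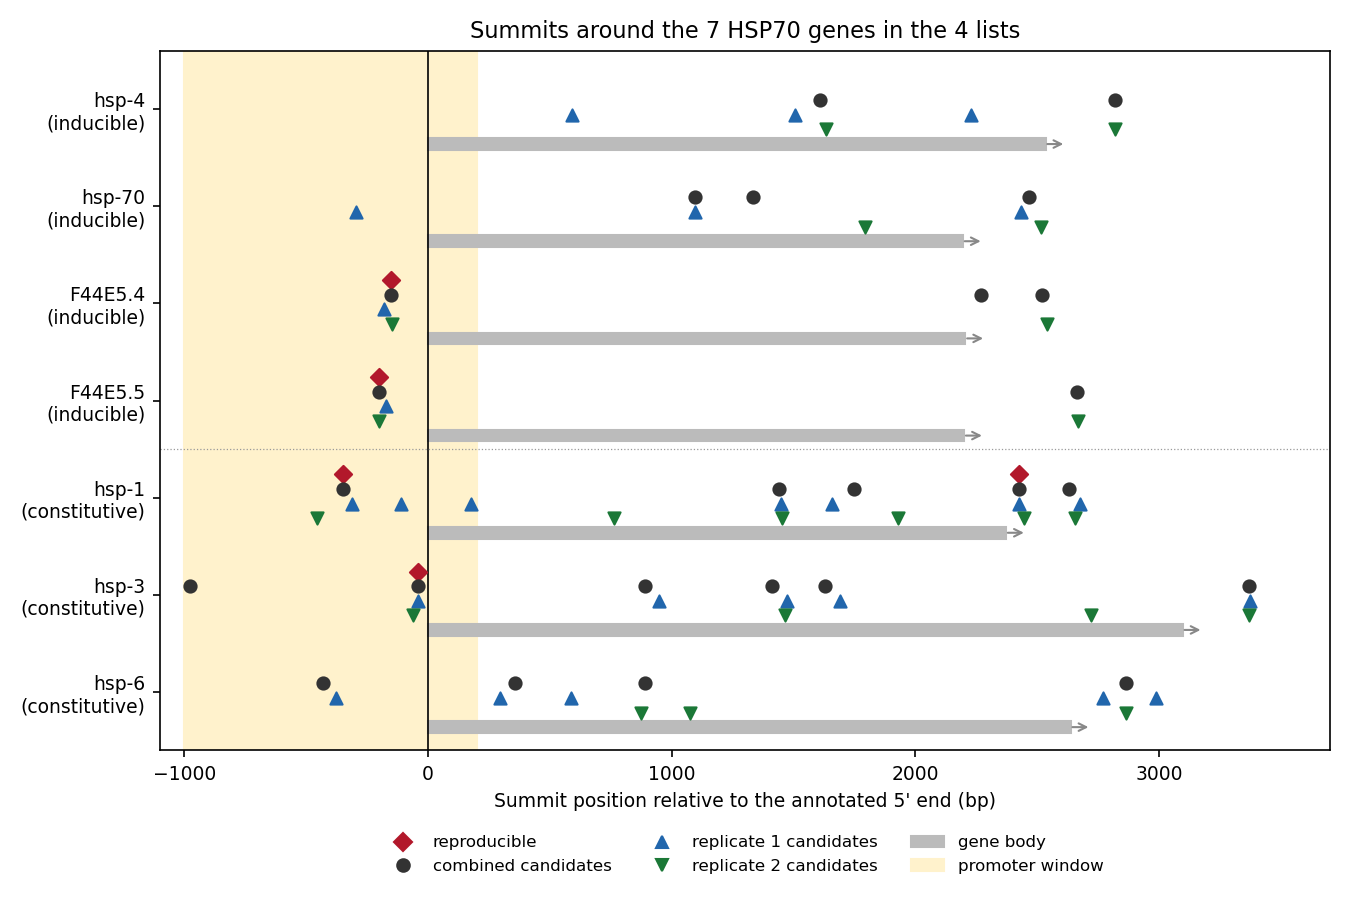
Summits of the 4 lists along each HSP70 gene, with the distance in bp from the annotated 5' end on the x axis, inducible genes above constitutive ones, and regions shown from 1000 bp upstream to 500 bp past the 3' end. The grey bar is the gene body and the shaded band the promoter window; the reproducible summits (diamonds) are at the shared F44E5.4 and F44E5.5 promoter, at hsp-1, at hsp-3 and 55 bp past the 3' end of hsp-1.

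F44E5.4 (WBGene00009691) and F44E5.5 (WBGene00009692), inducible cytosolic HSP70 genes, had the highest signal among the HSP70 promoters. They lie back to back on chromosome II, F44E5.4 at 11757107 to 11759311 on the minus strand and F44E5.5 at 11759662 to 11761861 on the plus strand, with 350 bp between their 5' ends. The peak of 211 bp lies wholly between the genes. Its summit was 150 bp upstream of F44E5.4 and 201 bp upstream of F44E5.5, so it cannot be given to one of them. Its signal was 250.8, which is 1.91 times the median of the nuclear reproducible peaks and rank 49 of 620.

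Both replicates held the shared peak near the top of their own list. In replicate 1 its signal was 93.54, rank 117, with 0.387% of candidates above it. In replicate 2 its signal was 157.62, rank 51, with 0.214% above it. The summits of the replicates were 31 bp apart, close to the median of 32 bp over the 615 nuclear peaks with a summit in both.

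The HSEs of the F44E5.4 and F44E5.5 promoter stand out in the printed sequence as 4 groups of capitals, 1 near each TATAAA match and 2 between them. Counting both HSE forms, which are palindromic and overlap one another in an alternating array, the stretch shown has 14 matches, and 8 of them lie inside the peak. The window of 300 bp that starts 250 bp before the 5' end holds 10 matches for each gene, and 8 or more were found in 0.03% of all 19973 promoters of that length (6 promoters, these 2 included). The others of these 6 held from 13 to 25 matches, and none of them had a reproducible or combined promoter summit. Among 201-bp windows centred on the 620 nuclear reproducible summits, 9 matches were counted at F44E5.4 and F44E5.5, and no other window reached 8. A TATAAA match starts 31 bp upstream of F44E5.4 and 41 bp upstream of F44E5.5. The 175 bp on either side of the middle, each read towards its own gene, were identical at 77.0% of 161 aligned bases.

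The coding sequences of F44E5.4 and F44E5.5 are the same in all 1935 bases. Of the 32-base words in each gene body, 1.84% in F44E5.4 and 1.94% in F44E5.5 occur once in the genome, against a median of 100% over all protein-coding genes. Of all protein-coding gene bodies, 1.32% had a share at or below that of F44E5.4 and 1.34% at or below that of F44E5.5. The peak itself is largely unique, with 98.3% of its words found once. No summit of any of the 4 lists lies inside either gene body, and the sources used here do not say how reads with several matching positions were handled, so the part of sequence uniqueness in the empty gene bodies was not tested.

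**Figure D2:**
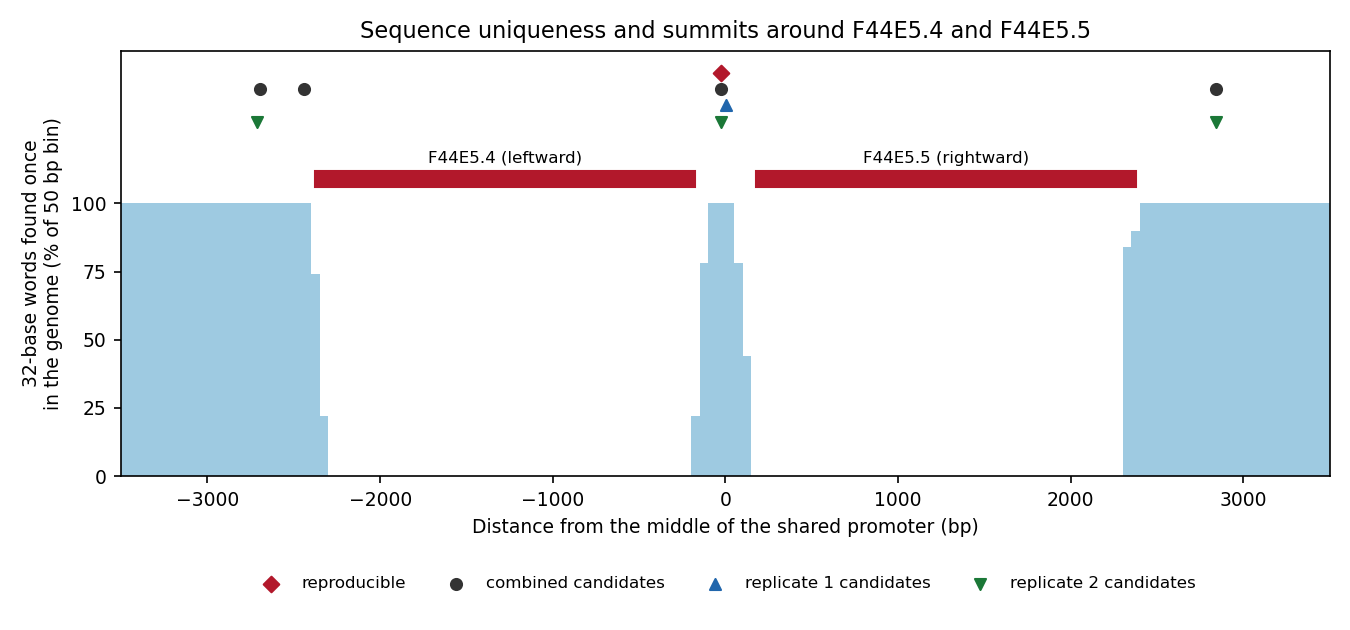
Percent of 32-base words that occur once in the genome, in 50-bp bins, by distance in bp from the middle of the promoter shared by F44E5.4 and F44E5.5, with the gene bodies as bars and the summits of each list as symbols above them. The summits at the shared promoter sit in the narrow unique stretch between both genes, whose bodies hold no summit and almost no unique words.

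hsp-4 (WBGene00002008), the stress-induced BiP gene, gave no promoter summit in any list. It lies on the minus strand of chromosome II at 7350112 to 7352645, and the nearest reproducible summit was 126268 bp away. The nearest combined candidate lay inside the gene, 1607 bp from the 5' end, with a signal of 68.62 and 7.3% of the list above it. The candidates closest to that position had 38.4% of the list above them in replicate 1 (1506 bp) and 15.8% in replicate 2 (1632 bp). The hsp-4 promoter holds TGACGTG, 83 bp upstream on the opposite strand, and 2 HSE matches in the printed 250 bp, so hsp-4 shares the XBP-1 type element with hsp-3 but has no peak. The coding sequences of hsp-4 and hsp-3 were identical at 77.7% of aligned bases, and 93.8% of the 32-base words in the hsp-4 promoter window were unique.

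hsp-70 (WBGene00002026), an inducible cytosolic gene, lies on the minus strand of chromosome I at 9320325 to 9322519, inside an intron of uggt-2 on the opposite strand. Its only promoter candidate was in replicate 1, 296 bp upstream, with a signal of 17.5 and 70.5% of the list above it. The nearest reproducible summit lay 5085 bp upstream, with a signal of 106.63, and it was 33 bp from the tRNA gene C12C8.t2. The coding sequence of hsp-70 was identical to that of F44E5.4 at 80.6% of aligned bases, and all its 32-base promoter words were unique.

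hsp-1 (WBGene00002005), the constitutive cytosolic HSP70, had 2 reproducible peaks, 1 at each end of the gene, which lies on the plus strand of chromosome IV at 17278959 to 17281330. The promoter peak at 17278422 to 17278797 had its summit 349 bp upstream and a signal of 138.58. That is 1.06 times the median of the nuclear reproducible peaks and rank 266 of 620. In replicate 1 its signal was 66.81, rank 278, with 0.923% of candidates above it, and in replicate 2 its signal was 95.42, rank 176, with 0.747% above it.

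The replicates placed the hsp-1 promoter summit less closely than they did at the other HSP70 promoters. It was 311 bp upstream in replicate 1 and 456 bp upstream in replicate 2. This distance of 145 bp was reached or passed by 11 of the 615 nuclear peaks, or 1.79%. Replicate 1 also listed weaker candidates 109 bp upstream (signal 38.63, rank 1623) and 175 bp downstream (signal 20.92, rank 13894). The reproducible summit lay 108 bp from the ncRNA gene F26D10.23 and 862 bp from clec-196, named as a C-type lectin gene.

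In the printed hsp-1 stretch, 1 HSE match lies near the summit and a pair of overlapping ones lies closer to the gene, starting 144 and 139 bp upstream. The 201-bp window around the summit holds that 1 match, and 16.9% of such windows at the reproducible peaks hold at least 1. Its GC content was 37.3%, below the middle 50% of these windows, which ran from 40.8% to 49.8%.

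The other reproducible peak of hsp-1 lay just past its 3' end, at 17281318 to 17281494. Its summit was 55 bp beyond the end of hsp-1 and 70 bp beyond the end of nra-1, which points towards hsp-1 from the opposite strand. With a signal of 146.12 it was slightly above the promoter peak, and its ranks were close to it too, 293 in replicate 1 and 187 in replicate 2. Of all protein-coding genes, 1.06% had a reproducible summit within 500 bp past the 3' end, and hsp-1 was the only HSP70 gene among the 7 to have one. A candidate within the hsp-1 body, 1440 bp from the 5' end, had a combined signal of 95.72, just under the lowest reproducible signal of 100.5, and ranks of 2078 in replicate 1 and 588 in replicate 2.

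hsp-3 (WBGene00002007), one of 2 genes here for the endoplasmic reticulum HSP70 known as BiP, had the peak closest to its 5' end. The gene runs on the minus strand of chromosome X from 6089028 to 6092124, and the peak at 6091979 to 6092354 had its summit 43 bp upstream, with a signal of 127.92. That is 0.974 times the nuclear median and rank 338 of 620. In replicate 1 the signal was 58.67, rank 404, and in replicate 2 it was 77.98, rank 315. Each had 1.34% of its list above it. The summits were 20 bp apart, and hsp-3 was the only gene with a body within 1000 bp of the reproducible summit.

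The hsp-3 promoter held no HSE match, either in the 300 bp that start 250 bp before the 5' end or in the full promoter of 1200 bp. In the 300 bp it held 1 match to TGACGTG and 1 to the heat shock associated site GGGTGTC, and both lie within the 201-bp window around the summit. TGACGTG occurs in 2.93% of all 300-bp promoters and in 1.29% of the windows at reproducible peaks, and GGGTGTC in 1.22% of promoters and 1.94% of windows. With 61.2% GC, the hsp-3 window was well above the median of 45.3% over the 620 windows.

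hsp-6 (WBGene00002010), the mitochondrial HSP70, had only weak promoter candidates. The gene lies on the minus strand of chromosome V at 4824124 to 4826760. The combined list placed a summit 430 bp upstream with a signal of 42.79, and 39.6% of candidates ranked above it. Replicate 1 placed one 379 bp upstream (signal 21.69, 42% above it), and replicate 2 had none. The combined summit lies within the ncRNA genes C37H5.15 and C37H5.16 and 170 bp upstream of C37H5.5, which is transcribed away from hsp-6. The 300 bp that start 250 bp before the 5' end hold no match to either HSE form or to TGACGTG, and the full promoter of 1200 bp holds 1 match to each HSE form and none to TGACGTG. The nearest reproducible summit was 678478 bp away.

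**Figure D3:**
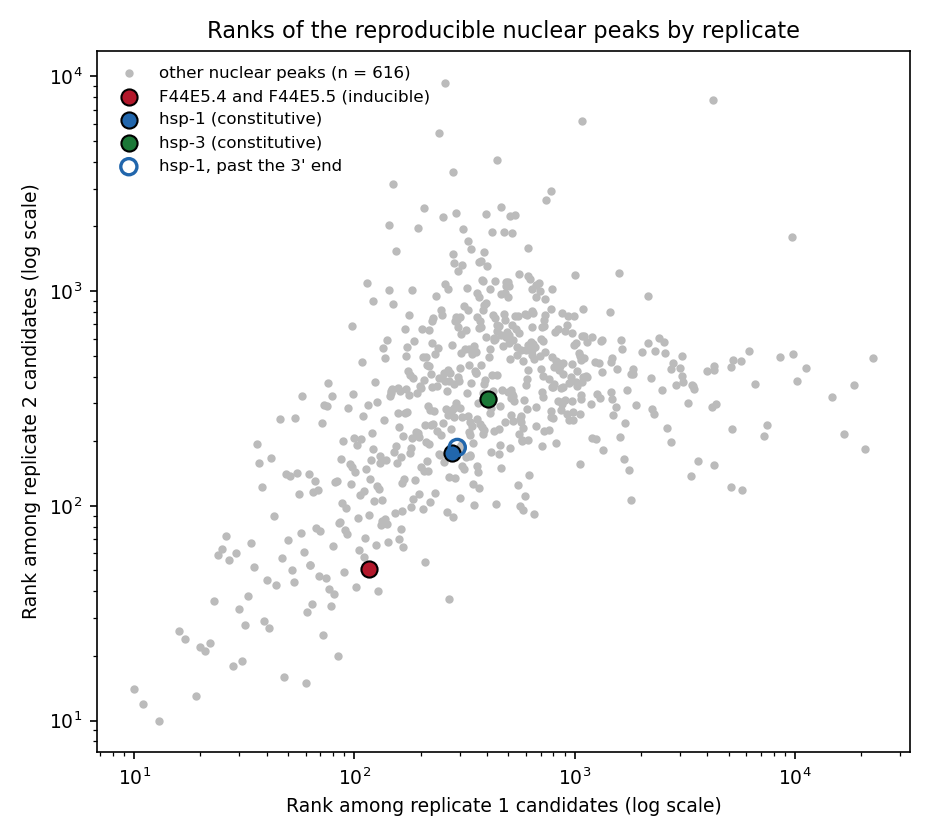
Rank of each nuclear reproducible peak among the candidates of replicate 1 (x axis) and replicate 2 (y axis), both on log scales, where low ranks are the strongest signals. The filled circles are the HSP70 promoter peaks, with the shared F44E5.4 and F44E5.5 peak at ranks 117 and 51, hsp-1 at 278 and 176 and hsp-3 at 404 and 315; the open circle is the peak past the hsp-1 3' end at 293 and 187.

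By rank in both replicates the order of the promoter peaks was the same: F44E5.4 and F44E5.5, then hsp-1, then hsp-3. With 1 value per replicate the spread of a rank is not known, and the signals of hsp-1 and hsp-3 both lie near the median of the list. Among 306 peaks with a protein-coding 5' end within 1000 bp, those closest in rank to the F44E5.4 and F44E5.5 peak were at wwp-1, a HECT-type ubiquitin ligase gene (ranks 110 and 58), cbp-1, which encodes a CBP/p300 histone acetyltransferase (128 and 40), and drr-2 (125 and 66). Closest to hsp-1 were C34C12.8 (291 and 180), the ubiquitin ligase gene eel-1 (301 and 188) and clec-126 (245 and 172). Closest to hsp-3 were T28F4.5 (392 and 327), ska-3 (427 and 316) and sto-4 (426 and 342). Each pair of ranks is for replicate 1 and then replicate 2, and likeness was measured as the distance in log10 rank over these 2 values.

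In the 300 bp that start 250 bp before each 5' end, each HSE form was present at 5 of the 7 genes. They were the same for both forms, namely all 4 inducible ones and, among the constitutive, hsp-1. In stretches of that length, GAANNTTC was found in 18.5% and TTCNNGAA in 18.9% of all promoters. Over the full 1200 bp, each form was present at 6 genes, hsp-6 being added, where 57.2% of all promoters held GAANNTTC and 57.9% held TTCNNGAA. The share of all promoters that hold both forms was not computed. In the 300 bp, the count of matches to either form was 10 at F44E5.4, 10 at F44E5.5, 3 at hsp-70, 2 at hsp-4, 2 at hsp-1 and 0 at hsp-3 and hsp-6. At least 2 were found in 7.69% of all promoters and at least 3 in 1.42%. In the 300 bp, F44E5.4, F44E5.5 and hsp-1 had HSEs and a reproducible peak, and hsp-6 had neither. Over both lengths, hsp-70 and hsp-4 had HSEs and no reproducible peak, and hsp-3 had a peak and no HSE. Over 1200 bp, hsp-6 joined the genes with HSEs and no reproducible peak. A link between HSEs and peaks was not tested. TATAAA was found in the 300 bp of 4 genes, 3 inducible and 1 constitutive, and of 37.9% of all promoters. Over 1200 bp it was found at 6 genes, 4 inducible and 2 constitutive, and in 80.0% of all promoters.

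Over the whole genome, of the 19 protein-coding promoters with 5 or more HSE matches in the 300 bp, 3 had a reproducible summit, and 2 of those were F44E5.4 and F44E5.5. GAANNTTC was in 10.3% and TTCNNGAA in 9.19% of the 201-bp windows at reproducible peaks. In contrast, GGTTCGA, the B box of tRNA gene promoters, was in 21.6% of those windows and in 1.42% of all promoters, and its shorter form GGTTCG in 25.2% and 3.86%. Neither was in any of the 7 HSP70 promoters, over 300 bp or 1200 bp. Over 1200 bp, GGTTCGA was in 6.9% and GGTTCG in 17.4% of all promoters. At such shares, absence from 7 promoters does not set them apart. A match describes letters only and does not show that a factor is bound there.

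Away from the promoters, 19 combined candidates lay in the bodies of the HSP70 genes or just past them, and 11 of these had a signal above the list's median of 39.48. At 5 of the 7 genes the strongest had less than 10% of the list above it. The share of all protein-coding genes that reach this was not computed, so the count has no background beside it. Past the 3' end, within 500 bp, the combined list held a summit at 7 of the 7 genes (4 inducible and 3 constitutive), where 21.3% of all protein-coding genes had one. The replicates differed here. Replicate 2 listed a summit in this window at each gene, but replicate 1 listed none at hsp-4, F44E5.4 or F44E5.5. This window was chosen after the positions had been seen, and the combined count depends on it: within 200 bp it was 2 of 7, where 9.36% of all genes had one. After the hsp-1 peak, the highest combined signals past the 3' end were 88.28 at hsp-3 (911th in the combined list, 274 bp past the end) and 79.98 at hsp-6 (1228th, 228 bp past the end). The signal was 66.09 at F44E5.4, in the ncRNA gene F44E5.16. It was 51.53 at hsp-70, in an intron of uggt-2, 37.1 at F44E5.5, in an exon of F44E5.3, and 34.85 at hsp-4, between genes. The replicate 2 summit past hsp-70 was near the bottom of its list, at rank 23400 of 23415. It lay in C12C8.t6, which is named like the tRNA gene C12C8.t2.

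Within the gene bodies, beyond the first 200 bp, combined candidates lay at 5 of the 7 genes (2 inducible and 3 constitutive). Of the 4863 protein-coding genes of a like length, 2000 to 3500 bp, 47.7% had one. The genes without one were F44E5.4 and F44E5.5. In the combined list, the body candidate was the strongest region of hsp-4, and the region past the 3' end was the strongest of hsp-6.

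**Figure D4:**
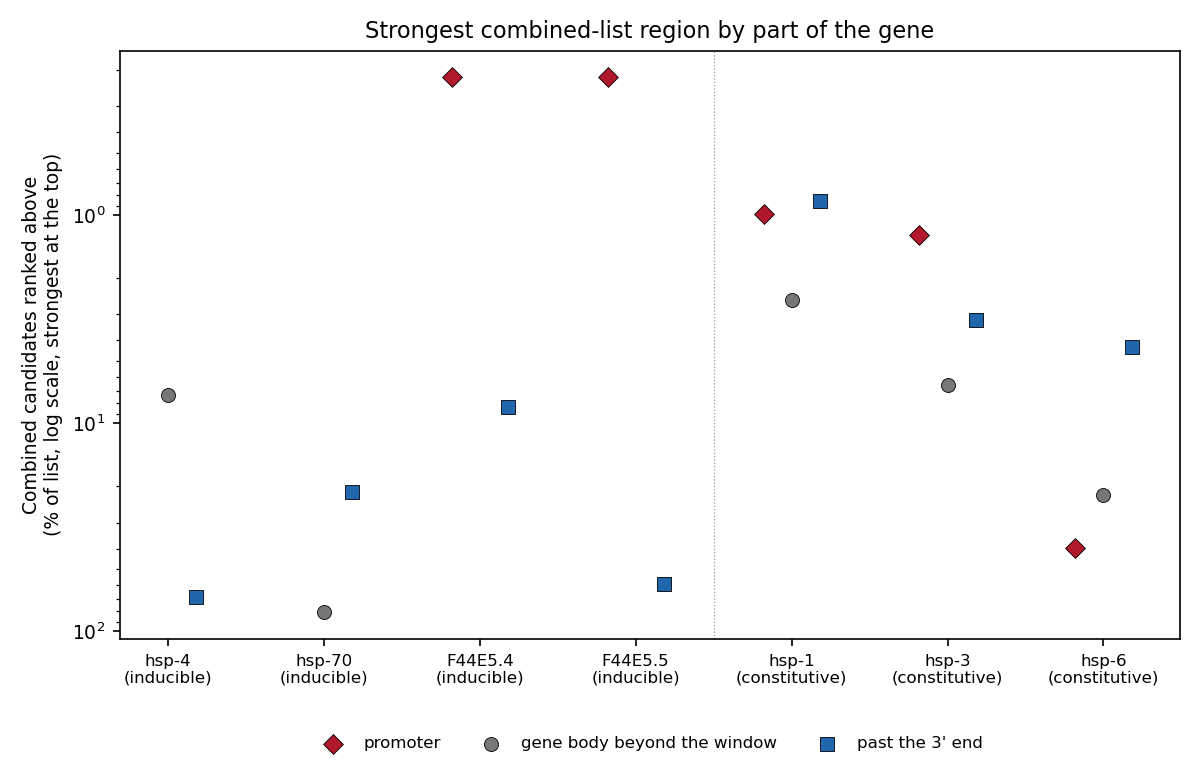
Percent of the combined candidates ranked above the strongest region in the promoter, in the gene body beyond the first 200 bp and within 500 bp past the 3' end, for each HSP70 gene on a log scale with the strongest at the top. The promoter leads at F44E5.4, F44E5.5 and hsp-3 (0.218%, 0.218% and 1.24%), the 3' region at hsp-1 (0.858%, with the promoter at 0.984%), hsp-6 and hsp-70, and the body at hsp-4.

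Genes that work with HSP70 were taken from lists by name. Of 12 partner genes, 3 had a reproducible promoter summit, beside 1.46% of all protein-coding genes. They were dnj-13 and dnj-19, J-domain proteins that bring substrates to HSP70, with signals of 237.5 and 143.9, and bag-1, a nucleotide exchange factor, with 152.9. The dnj-13 and dnj-19 summits lay within 200 bp of a non-coding gene, and that of bag-1 did not. The dnj-19 summit was also closer to another protein-coding gene, 15 bp from the 5' end of nhr-47 and 381 bp upstream of dnj-19. Both mitochondrial chaperonin genes, hsp-60 and Y22D7AL.10, had a summit, which is 1 shared peak (signal 251). Combined candidates lay in the promoters of 7 of the 12 partner genes and of both chaperonin genes, beside 30.4% of all protein-coding genes.

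No reproducible promoter summit was found at any of 5 other HSP70 superfamily genes, 3 HSP90 family genes, 14 small heat shock protein genes or 11 genes of stress regulators. The stress regulators include hsf-1, xbp-1 and atfs-1, which encode the factors known to raise HSP70 genes in the cytosol, the endoplasmic reticulum and mitochondria. Combined candidates lay at 2 of the 5, 2 of the 3, 3 of the 14 and 4 of the 11, beside 30.4% of all protein-coding genes.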

How the data were processed

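ChIP-seq regions were taken from the 4 lists that the authors deposited for whole L4 larvae. Per the labels and the authors' notes, chromatin was sonicated to 200 to 800 bp, the assembly was ce11, candidate regions were made from replicate 1, from replicate 2 and from both, each against a control, and the reproducible list was derived from these with the irreproducible discovery rate. Replicate 1's 2 technical libraries went into 1 alignment and count once. Control reads were not analysed here. Caller, aligner, thresholds and versions were not given in the sources used here. Signal is a score that the authors deposited with each region; it reflects depth, mappability, copy number and the control, none of which could be corrected. The deposited −log10 q was 1.971 for every reproducible peak and ranked nothing. The summit is the region's start plus its deposited offset.

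Summits were joined to 5' ends of Ensembl release 115 with Python 3.11.15, pandas 2.3.3 and numpy 2.4.6, and coding sequences were aligned with Biopython 1.88. The genome was RefSeq's WBcel235. Of 2811 genes without a symbol, 2773 were named through RefSeq. Symbols daf-21, hsp-16.11 and hsp-16.49 found no gene of their own. Unique words were 32-base words that occur once in the genome on either strand. The promoter join and the motif search were first tested on simulated data. With 1 group and 2 biological replicates, no test across samples was run. Members and lists were chosen with earlier results of these data known. Named genes were the members, genes within 1000 bp of their summits and up to 4 list genes with a reproducible summit by signal. The 3 genes nearest in rank to each bound member were named too. Added after their positions were seen were nra-1, nhr-47, C12C8.t2, C12C8.t6, F44E5.3 and F44E5.16. Other promoter windows, overlap and assignment rules, the stronger peaks, peaks away from non-coding genes, all transcript 5' ends, each replicate alone and, for motifs, 1200 bp in place of 300 bp were tried. The promoter sequences of some members are not reported here.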

Additional observations from a re-analysis of the deposited data

How the results depend on the processing

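The count of 4 HSP70 genes with a reproducible promoter summit stayed between 3 and 4 under every setting tried. Of the inducible genes, 1 in place of 2 was counted when a summit counted only for the closest protein-coding 5' end, and also when genes sharing a summit were counted once, a setting chosen after seeing the data; both follow from the single peak of F44E5.4 and F44E5.5. Of the constitutive genes, 1 in place of 2 was counted with the 310 stronger peaks only (signal of at least 131.4), which leaves out hsp-3, and also without peaks near non-coding genes, which leaves out hsp-1. The share of all protein-coding genes was 1.04% with a window from 500 bp upstream to 100 bp downstream, 2.17% from 2000 bp upstream, 1.69% with any overlap, 1.14% with the nearest 5' end only, 0.806% with the stronger peaks and 0.891% without peaks near non-coding genes. With 1 replicate left out, it ran from 1.34% to 1.51%, and the HSP70 count was 4 each time. These values are not those of a replicate's full candidate list, where the shares were 30.7% in replicate 1 and 26.9% in replicate 2. The count of genes with a combined summit past the 3' end was 2 within 200 bp, 6 within 300 bp and 7 within 1000 bp, windows also chosen after seeing the data. No paired analysis was possible because there is only 1 group. Depth, list length and the reproducibility threshold may each limit a statement that a summit was missing, and their parts were not tested.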
